A study of Mus musculus with 24 samples.

Results

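The genes described here are 10 regulators of the G1 phase of the cell cycle and of entry into S phase: the D-type cyclins Ccnd1, Ccnd2 and Ccnd3, the E-type cyclins Ccne1 and Ccne2, the cyclin-dependent kinase (CDK) inhibitors Cdkn1b and Cdkn2c, and the E2F factors E2f1, E2f2 and E2f8. They were named by symbol and matched to the gene identifiers of the count table, which held 56884 genes, and 10 of 10 were among the 13679 genes with enough counts to be tested. The RNA came from macrophages grown from bone marrow (BMDM) of 4 wild-type C57BL/6J mice, numbered 1, 2, 4 and 5, which were female and 9 weeks old by the study's methods. Marrow was grown in macrophage colony-stimulating factor (M-CSF), and cells of each mouse went into each of 6 groups of 4 libraries, so that a mouse number joins libraries across groups. The study asked how inhibitors that engage the integrated stress response, in which phosphorylation of the translation factor eIF2α slows protein synthesis, alter the response to interleukin-4 (IL-4) and IL-13.

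M0 cells were left naive for 24 hours, and M2 cells received IL-4 at 20 ng/ml with IL-13 at 20 ng/ml for 24 hours. The remaining 4 groups received the same cytokines after 1 hour of pretreatment with an inhibitor that then stayed in the medium. Tunica cells received tunicamycin, which blocks N-linked glycosylation in the endoplasmic reticulum, at 5 µg/ml, and Sal003 cells received Sal003, which slows the dephosphorylation of eIF2α, at 10 µM. Oligo and Oli_ISR cells received oligomycin, an inhibitor of the mitochondrial ATP synthase, at 1 µM, and 1 of these groups also received ISRIB, which counteracts the response downstream of eIF2α, at 1 µM. The labels conflict on which: titles and treatment fields put ISRIB in the Oligo columns, while library names and replicate labels put it in the Oli_ISR columns. Each group is therefore called by its column name, and the conflict was not resolved from the values. Libraries held 16238727 to 26725278 counts on genes.

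Macrophage markers were abundant in every library. The summed level of 7 macrophage genes was 8720 to 36300 CPM (counts relative to the scaled size of the library), led by Lyz2, with means of 33700 CPM in M0, 12100 in M2, 17000 in Tunica, 14300 in Sal003, 9060 in Oligo and 14200 in Oli_ISR, and 7 of 7 were above 3 counts in at least 1 library. Its genes did not move alike: in Tunica against M2, mean CPM was 8630 against 5980 for Lyz2, 6680 against 977 for Adgre1 and 230 against 36.9 for Fcgr1. It was 821 against 3730 for Csf1r, the M-CSF receptor, 481 against 1230 for Cd68, 19 against 66 for Mertk and 97.2 against 104 for Itgam. Neutrophil and precursor genes, with 8 of 8 above 3 counts somewhere and S100a9 the most abundant, summed to 54.8, 78.2, 56.4 and 41.3 CPM in M0 (mice 1, 2, 4 and 5 here and below) and to 40.4, 42.2, 45 and 24.3 CPM in M2. The same sum was 0.103, 0.286, 0.17 and 0.255 CPM in Tunica and 5.19, 5.7, 8.44 and 8.49 CPM in Sal003. It was 4.02, 3.06, 4.82 and 2.75 CPM in Oligo and 18.9, 19.4, 24.2 and 24.9 CPM in Oli_ISR. On average this sum was highest in M0 and M2, though M2 and Oli_ISR overlapped, and lowest in Tunica, with no overlap between Tunica and any other group.

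Fibroblast or stromal genes, with 5 of 5 above 3 counts somewhere and Col1a2 the most abundant, summed to 139, 83, 89.7 and 18.4 CPM in M0 and to 86.9, 53.3, 48.3 and 15.3 CPM in M2. The sum was 24.6, 15.7, 18.8 and 3.57 CPM in Tunica and 48.1, 29, 31.1 and 7.77 CPM in Sal003. It was 54.9, 27.7, 30.3 and 5.6 CPM in Oligo and 53.3, 27.7, 30 and 7.98 CPM in Oli_ISR. Mouse 5 was the lowest and mouse 1 the highest in each of the 6 groups, and M0 was the highest group in each mouse. Dendritic cell genes, led by Zbtb46, summed to 3.91 to 7.41 CPM in M0 and M2 and to 0.964 to 2.52 CPM in the inhibitor groups. T cell genes, led by Lck, summed to at most 2.15 CPM, with Cd3e, Cd3d and Cd3g at no more than 3 counts in every library. B cell and mast cell genes summed to at most 1.28 and 1.31 CPM, and the erythroid genes Hbb-bs, Hbb-bt, Hba-a1 and Hba-a2 stayed at or under 3 counts. The part of these other cells in the results below was not tested.

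Growth factors such as M-CSF induce D-type cyclins, which activate Cdk4 and Cdk6, and these kinases begin the phosphorylation of the retinoblastoma protein that holds E2F factors in check. Freed E2F factors switch on genes for DNA synthesis along with the E-type cyclins, which activate Cdk2 and carry the cell into S phase. Inhibitors of the Ink4 family, Cdkn2c among them, bind Cdk4 and Cdk6, whereas inhibitors of the Cip/Kip family, Cdkn1b among them, restrain Cdk2 complexes.

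With IL-4 and IL-13, 6 of the 10 genes rose and 1 fell against naive cells, where a change means an adjusted p under 0.05 in the quasi-likelihood test of edgeR, adjusted by Benjamini-Hochberg over 13679 genes. Of all genes tested, 30.1% rose and 30.4% fell. Ccne1 and Ccne2 also passed 2.5-fold, as did 11.5% of all genes in either direction. The median log2 fold change was 0.80 over the 10 genes and -0.02 over all genes tested. Each change called in a comparison with M2, or between M2 and M0, went the same way in 4 of 4 mice.

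Each inhibitor group had lower levels of most of these genes than M2, and none of the 10 genes rose. With tunicamycin 9 of 10 fell, against 37.6% of all genes that fell and 38.7% that rose. Of the 9, 6 fell at least 2.5-fold. In either direction 22.6% of all genes passed 2.5-fold, with 1917 genes lower and 1171 higher. The shares at 2.5-fold for the other inhibitor groups are also for either direction. With Sal003 10 of 10 fell, against 24.6% of all genes that fell and 25.9% that rose, and 3 passed 2.5-fold (7.71% of all genes). The count that fell with Sal003 was 9 with no filter on low counts, without mouse 1 or without mouse 5, where E2f1 no longer passed. In Oligo 10 of 10 fell, against 32.2% of all genes that fell and 34% that rose, and 7 passed 2.5-fold (12.7% of all genes). In Oli_ISR 8 of 10 fell, against 26.4% of all genes that fell and 27.9% that rose, and 5 passed 2.5-fold (7.96% of all genes). These 4 comparisons share the M2 libraries, so their counts are not independent. The medians over the 10 genes were -2.05 for Tunica, -1.10 for Sal003, -2.05 for Oligo and -1.30 for Oli_ISR on the log2 scale, and those over all genes tested were 0.01, 0.00, 0.01 and 0.00. In RNA from whole cultures, fewer cells in a phase of the cycle and less RNA per cell cannot be told apart. The summed neutrophil, stromal and dendritic cell genes were on average also lower in each inhibitor group than in M2, as given above.

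Between the oligomycin groups, 7 of 10 genes were lower in Oligo than in Oli_ISR and none was higher, against 21.3% of all genes lower and 19.9% higher. Ccnd1 alone among them passed 2.5-fold, as did 2.62% of all genes. The median was -0.48 over the 10 genes and 0.00 over all genes tested. The log2 fold change was -1.10 for E2f8 (SE 0.14), -1.09 for Ccnd3 (SE 0.07), -0.69 for E2f2 (SE 0.07), -0.58 for Cdkn2c (SE 0.10), -0.24 for Cdkn1b (SE 0.04) and -0.18 for E2f1 (SE 0.07). The count of 7 became 6, without E2f1, when mouse 1, mouse 4 or mouse 5 was left out, under upper-quartile normalization and with no filter on low counts. It became 8, with Ccnd2, under a replicate block for mouse and with only the groups compared. The log2 fold change did not pass the test for Ccnd2 at -0.37 (SE 0.16), Ccne1 at -0.11 (SE 0.16) or Ccne2 at -0.22 (SE 0.23). Without overlap between these groups, Oligo also had the lower neutrophil sum (3.66 against 21.8 CPM on average) and the lower macrophage sum (9060 against 14200 CPM). Lck was higher in Oligo (2.08 against 1.04 CPM), while Cd3e, Cd3d and Cd3g were at or near 0 in both groups. The part of these genes in the differences was not tested.

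**Figure D1:**
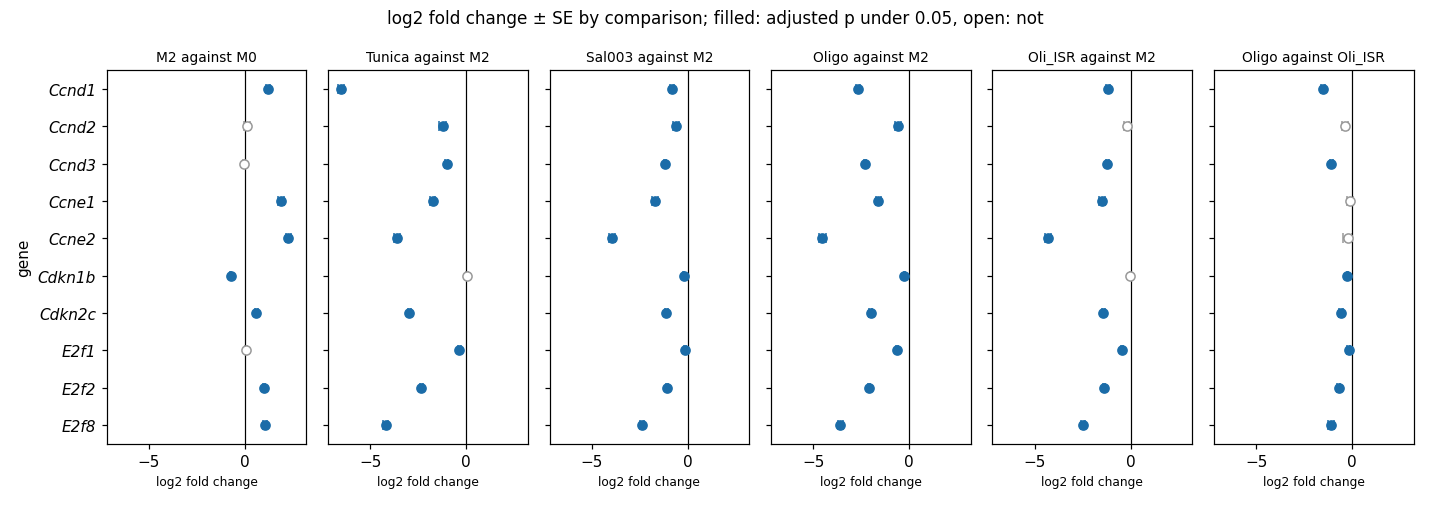
Log2 fold change with its SE for each of the 10 genes (rows) in 6 comparisons (panels), from the same fit of 24 libraries; filled points passed an adjusted p of 0.05 and open points did not. Points right of 0 are higher in the group named before "against", and Ccnd1 with tunicamycin lies farthest from 0, at -6.52.

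Ccnd1 encodes cyclin D1, the partner of Cdk4 and Cdk6 that responds most directly to growth factors, and lies at chr7:144483668-144493662 on the minus strand of GRCm39 (ENSMUSG00000070348). In mice 1, 2, 4 and 5 it stood at 79.3, 90.9, 69.9 and 93.1 CPM in M0 and at 187, 204, 190 and 195 CPM in M2. With tunicamycin it stood at 2.00, 2.05, 2.27 and 2.14 CPM, from 39 to 43 counts a library. The M2 libraries were above every M0 library, and the Tunica libraries lay far below every other library. In Sal003 it stood at 116, 113, 107 and 104 CPM. It was at 35.4, 33.5, 25.5 and 27.6 CPM in Oligo and at 92.9, 100, 67.3 and 86.4 CPM in Oli_ISR. Oligo libraries were thus below all M0 libraries, while Oli_ISR libraries overlapped M0 and Sal003 libraries lay above them.

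Mean levels of Ccnd1 were 83.3 ± 10.8 CPM in M0, 194 ± 7.33 CPM in M2 and 2.11 ± 0.118 CPM in Tunica (SD, n = 4). Cytokines raised it 2.33-fold, a log2 fold change of 1.22 (SE 0.10, edgeR quasi-likelihood test, Benjamini-Hochberg adjusted p = 8.5e-11). Tunicamycin lowered it 91.6-fold from M2 (log2 -6.52, SE 0.15, edgeR, Benjamini-Hochberg adjusted p = 2.7e-22). Even against naive cells it was 39.4-fold lower with tunicamycin. The drop from M2 was 6.35-fold in Oligo (log2 -2.67, SE 0.11), 2.24-fold in Oli_ISR (log2 -1.16, SE 0.10) and 1.76-fold in Sal003 (log2 -0.82, SE 0.10). Between the oligomycin groups Ccnd1 was 2.84-fold lower in Oligo (log2 -1.51, SE 0.11, edgeR, Benjamini-Hochberg adjusted p = 2.8e-11). The order of levels was M2, Sal003, Oli_ISR, M0, Oligo and Tunica, in which Oli_ISR and M0 were the neighbours that did not pass the test (edgeR, Benjamini-Hochberg adjusted p = 0.63). In the Ccnd1 annotation, 48.4% of exon bases are overlapped by LTO1 on the opposite strand, and the strand setting of the counting was not stated, so reads of the pair may not be fully separated. LTO1 had 482 to 756 counts a library, with means of 32.9 CPM in M2 and 27 CPM in Tunica. The same doubt holds for the other overlaps on the opposite strand, which cover 15.8% of exon bases in Ccnd2, 6.32% in Ccnd3, 1.93% in Ccne1, 15.2% in Ccne2, 5.21% in Cdkn1b, 7.74% in Cdkn2c and 20.2% in E2f8, and none in E2f1 or E2f2.

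Ccnd3, cyclin D3, activates the same kinases and is widely used in blood cells (ENSMUSG00000034165, chr17:47815767-47910624, plus strand). It stood at 60.8, 70.3, 60.9 and 55.1 CPM in M0 and at 59.9, 61.6, 59.8 and 58.7 CPM in M2, so these groups overlapped. In Tunica it stood at 30, 28, 29.8 and 30 CPM and in Sal003 at 25.6, 27.2, 28.6 and 24.9 CPM. It was at 12.8, 12.6, 12.5 and 10.9 CPM in Oligo and at 27.6, 26.3, 23.7 and 26.3 CPM in Oli_ISR. All inhibitor libraries lay below all M0 and M2 libraries, and the Oligo libraries lay below all others. Cytokines gave no change past the test (log2 -0.04, SE 0.06; edgeR, Benjamini-Hochberg adjusted p = 0.59), and without mouse 2 the value was 0.01. The drop from M2 was 4.93-fold in Oligo (log2 -2.30, SE 0.07), 2.31-fold in Oli_ISR (log2 -1.21, SE 0.06), 2.26-fold in Sal003 (log2 -1.18, SE 0.06) and 2.04-fold in Tunica (log2 -1.03, SE 0.06). In order from the highest, M0, M2, Tunica, Sal003, Oli_ISR and Oligo, the M0 and M2 neighbours and the Sal003 and Oli_ISR neighbours did not pass the test.

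Ccnd2, cyclin D2, was scarce in these cells (ENSMUSG00000000184, chr6:127102125-127129156, minus strand). It ranged from 4.43 to 7.81 CPM in M0 and from 5.16 to 7.71 CPM in M2, from 78 to 160 counts a library. Tunica libraries lay at 2.43 to 2.95 CPM, below all libraries of the other groups. Ccnd2 fell 2.36-fold with tunicamycin (log2 -1.24, SE 0.17), 1.52-fold with Sal003 (log2 -0.61, SE 0.16) and 1.5-fold in Oligo (log2 -0.58, SE 0.16), and ranges of Sal003 and M2 overlapped. In Oli_ISR the log2 fold change was -0.21 (SE 0.15; edgeR, Benjamini-Hochberg adjusted p = 0.26). Between Oligo and Oli_ISR it was -0.37 (SE 0.16; edgeR, Benjamini-Hochberg adjusted p = 0.061), and this passed with mouse as a replicate block (adjusted p = 0.02), with a range of 0.02 to 0.14 over the alternatives. In its order, M2, M0, Oli_ISR, Oligo, Sal003 and Tunica, the step from Sal003 to Tunica alone passed the test.

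Levels per exon length, as TPM (counts per exon length relative to their library total), set the D-type cyclins side by side. The length was all annotated exon bases of a gene, 4783 for Ccnd1, 9409 for Ccnd2 and 9245 for Ccnd3. Transcripts in use may be shorter, so the shares below depend on this length, which was not varied. Summed over Ccnd1, Ccnd2 and Ccnd3, the level was 120 ± 10.5 TPM in M0, 218 ± 7.45 TPM in M2 and 20.2 ± 0.736 TPM in Tunica (SD, n = 4). It was 119 ± 5.55 TPM in Sal003, 41.7 ± 5.84 TPM in Oligo and 99.9 ± 14.9 TPM in Oli_ISR. Ccnd1 held 85 ± 0.366% of that sum in M2 and 70.3 ± 3.13% in M0. With tunicamycin Ccnd1 held 11.3 ± 0.546% and Ccnd3 81.3 ± 0.65%, so that Ccnd3 was the most abundant D-type cyclin transcript there by these counts, at 16.4 ± 0.6 TPM. Bysl, which overlaps Ccnd3 on the opposite strand, had means of 43.1 CPM in Tunica and 18.2 CPM in M2, and its part in the Ccnd3 counts was not tested. In Sal003, Oligo and Oli_ISR Ccnd1 held 87.4 ± 0.793%, 78.1 ± 1.82% and 84 ± 1.58% of the sum.

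**Figure D2:**
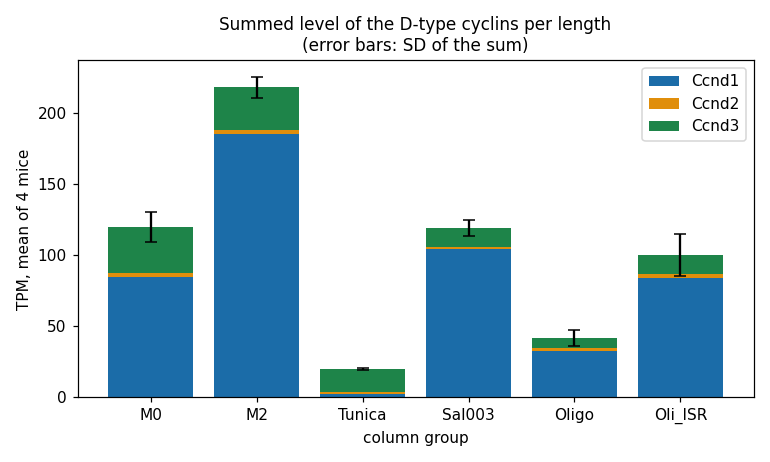
Mean TPM of Ccnd1, Ccnd2 and Ccnd3 stacked for each of the 6 groups, with the SD of the sum over 4 mice as error bar. TPM use all annotated exon bases of each gene as its length. The stack is tallest in M2, at 218 TPM, and shortest in Tunica, at 20.2 TPM, where most of it is Ccnd3.

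Ccne1 and Ccne2 encode the E-type cyclins, which activate Cdk2 at the entry into S phase. Ccne1 (ENSMUSG00000002068, chr7:37797404-37808264, minus strand) stood at 3.81, 3.35, 2.47 and 2.78 CPM in M0 and at 12, 11.9, 11.8 and 10.8 CPM in M2. It lay at 2.8 to 3.85 CPM in Tunica, 2.21 to 4.47 CPM in Sal003, 3.34 to 4.36 CPM in Oligo and 3.58 to 4.77 CPM in Oli_ISR. All M2 libraries were above all others, and each inhibitor group overlapped M0. The rise with cytokines was 3.74-fold (log2 1.90, SE 0.15; edgeR, Benjamini-Hochberg adjusted p = 6.7e-11), and drops from M2 ran from 2.81-fold in Oli_ISR to 3.39-fold in Tunica. From the highest, the order was M2, Oli_ISR, Oligo, Sal003, Tunica and M0, and no step below Oli_ISR passed the test between neighbours.

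Ccne2 (ENSMUSG00000028212, chr4:11190303-11204947, plus strand) stood at 3.66, 3.24, 2.68 and 2.29 CPM in M0 and at 15.7, 15.4, 14.6 and 11.4 CPM in M2. In Tunica it stood at 1.23, 1.09, 1.02 and 1.22 CPM and in Sal003 at 0.831, 0.733, 1.13 and 1.03 CPM. It was at 0.616, 0.611, 0.576 and 0.65 CPM in Oligo and at 0.758, 0.661, 0.905 and 0.581 CPM in Oli_ISR. Unlike Ccne1, Ccne2 in every inhibitor library lay below every M0 library, at 11 to 24 counts. Cytokines raised it 4.80-fold (log2 2.26, SE 0.13; edgeR, Benjamini-Hochberg adjusted p = 1.6e-13). Against M2 its log2 fold change was -4.53 in Oligo (SE 0.17, 23-fold lower), -4.31 in Oli_ISR (SE 0.16), -3.93 in Sal003 (SE 0.16) and -3.63 in Tunica (SE 0.15). The order was M2, M0, Tunica, Sal003, Oli_ISR and Oligo, and the inhibitor groups did not pass the test between neighbours. Pairs farther apart in this order did pass it. The log2 fold change was -0.89 (SE 0.22) for Oligo against Tunica and -0.67 (SE 0.21) for Oli_ISR against Tunica. For Oligo against Sal003 it was -0.60 (SE 0.23). Ints8 overlaps 15.2% of Ccne2 exon bases on the opposite strand and had 407 to 765 counts a library.

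Cdkn1b encodes the Cip/Kip inhibitor that restrains cyclin E with Cdk2 in resting cells (ENSMUSG00000003031, chr6:134897364-134902476, plus strand). It was the single gene of the 10 that fell with IL-4 and IL-13. It stood at 157, 134, 137 and 140 CPM in M0 and at 86.1, 85.9, 82.6 and 84.6 CPM in M2. Tunica libraries stood at 86.5, 90.1, 86.4 and 84.4 CPM, and Sal003 libraries at 72.4, 73.2, 76.7 and 71.6 CPM. Oligo libraries stood at 67.6, 72.3, 72.4 and 72.7 CPM, and Oli_ISR libraries at 82.5, 86.8, 84.5 and 83.4 CPM. Every M0 library was above every library with cytokines, with or without an inhibitor. The fall with cytokines was 1.68-fold (log2 -0.74, SE 0.04; edgeR, Benjamini-Hochberg adjusted p = 1.7e-13).

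Differences of Cdkn1b between the inhibitor groups and M2 were small. It was 1.19-fold lower in Oligo (log2 -0.25, SE 0.04) and 1.15-fold lower in Sal003 (log2 -0.21, SE 0.04). In Tunica the log2 fold change was 0.03 (SE 0.04; edgeR, Benjamini-Hochberg adjusted p = 0.48), with the sign reversed under upper-quartile normalization (-0.02) and under a filter of 10 counts in every library (-0.01). In Oli_ISR it was -0.01 (SE 0.04; edgeR, Benjamini-Hochberg adjusted p = 0.89). The order was M0, Tunica, M2, Oli_ISR, Sal003 and Oligo, and past M0 the step from Oli_ISR to Sal003 alone passed the test. Per length, Cdkn1b was the most abundant of the 10 transcripts in M0, at 151 ± 17.3 TPM against 84.3 ± 11 TPM for Ccnd1 (SD, n = 4). In M2 the ranks were exchanged, at 85.2 ± 2.56 TPM for Cdkn1b and 185 ± 6.89 TPM for Ccnd1. In Tunica Cdkn1b stood at 98.6 ± 2.61 TPM and Ccnd1 at 2.28 ± 0.111 TPM. These comparisons between genes depend on the exon lengths used, and reads of LTO1 may enter the Ccnd1 counts.

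Cdkn2c, the Ink4 inhibitor of Cdk4 and Cdk6 (ENSMUSG00000028551, chr4:109517957-109524386, minus strand), rose with cytokines and fell in each inhibitor group. It stood at 25.7, 28.5, 24.2 and 23.6 CPM in M0 and at 40.1, 36.8, 43.5 and 34.2 CPM in M2. Tunica libraries stood at 5.08, 4.43, 6.07 and 4.43 CPM, and Sal003 libraries at 17.8, 15.9, 20.3 and 17.2 CPM. Oligo libraries stood at 9.85, 9.74, 10.1 and 8.84 CPM, and Oli_ISR libraries at 14.7, 12.5, 14.9 and 15.4 CPM. All M2 libraries were above all M0 libraries, and all inhibitor libraries were below both. The rise was 1.52-fold (log2 0.60, SE 0.09; edgeR, Benjamini-Hochberg adjusted p = 1.3e-06). The drop from M2 was 7.76-fold in Tunica (log2 -2.96, SE 0.10), 4.02-fold in Oligo, 2.68-fold in Oli_ISR and 2.17-fold in Sal003. Each of the 5 steps in its order, M2, M0, Sal003, Oli_ISR, Oligo and Tunica, passed the test.

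E2f1 and E2f2 encode activating E2F factors, and E2f8 encodes an atypical factor that represses E2F targets. E2f1 (ENSMUSG00000027490, chr2:154401326-154411812, minus strand) varied least, from 25.2 CPM in an Oligo library to 45.2 CPM in the M0 library of mouse 2. It stood at 36.2, 45.2, 36.7 and 37 CPM in M0 and at 39.9, 41.3, 39.6 and 40.2 CPM in M2. Tunica libraries lay at 28.1 to 34.5 CPM and Sal003 libraries at 33.5 to 37.5 CPM. Oligo libraries lay at 25.2 to 27 CPM and Oli_ISR libraries at 27.6 to 30.7 CPM. Each of these inhibitor groups lay below all M2 libraries. The cytokine contrast gave 0.05 on the log2 scale (SE 0.06; edgeR, Benjamini-Hochberg adjusted p = 0.47), whereas without mouse 2 it was 0.12 (adjusted p = 0.038; highest over the alternatives 0.73). E2f1 fell 1.54-fold in Oligo (log2 -0.62, SE 0.06), 1.36-fold in Oli_ISR (log2 -0.45, SE 0.06) and 1.29-fold in Tunica (log2 -0.36, SE 0.06).

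Smaller differences of E2f1 were near the threshold. Against M2 the Sal003 value was -0.16 (SE 0.06; edgeR, Benjamini-Hochberg adjusted p = 0.034), which no longer passed without mouse 1 (0.082), without mouse 5 (0.10) or with no filter on low counts (0.084). The Oligo against Oli_ISR value was -0.18 (SE 0.07; edgeR, Benjamini-Hochberg adjusted p = 0.034), which no longer passed without mouse 1 (0.091), mouse 4 (0.17) or mouse 5 (0.14), under upper-quartile normalization (0.12) or with no filter (0.092). The lowest adjusted p over the alternatives was 0.0031 for Sal003 and 0.0081 for the oligomycin groups. The log2 values themselves ranged from -0.20 to -0.12 and from -0.19 to -0.14 over the alternatives. In its order, M2, M0, Sal003, Tunica, Oli_ISR and Oligo, the steps from Sal003 to Tunica and from Oli_ISR to Oligo passed the test.

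E2f2 (ENSMUSG00000018983, chr4:135899585-135923368, plus strand) stood at 33.4, 29.7, 33.2 and 30.7 CPM in M0 and at 63.4, 62.6, 63.7 and 64.2 CPM in M2. Tunica libraries stood at 12.9, 11.6, 13 and 12.7 CPM, and Sal003 libraries at 30.9, 28.9, 33 and 26.6 CPM. Oligo libraries stood at 15.6, 14.8, 13.7 and 15.8 CPM, and Oli_ISR libraries at 24.3, 22.8, 26.4 and 23.1 CPM. The M2 libraries were about level with each other and above all others, Sal003 overlapped M0, and the other inhibitor groups lay below M0. Cytokines raised E2f2 2.00-fold (log2 1.00, SE 0.06; edgeR, Benjamini-Hochberg adjusted p = 2.4e-13). The drop from M2 was 5.05-fold in Tunica (log2 -2.34, SE 0.07), 4.24-fold in Oligo (log2 -2.08, SE 0.06), 2.63-fold in Oli_ISR (log2 -1.40, SE 0.06) and 2.13-fold in Sal003 (log2 -1.09, SE 0.06). In the order M2, M0, Sal003, Oli_ISR, Oligo and Tunica, the M0 and Sal003 neighbours alone did not pass the test (edgeR, Benjamini-Hochberg adjusted p = 0.20).

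E2f8 (ENSMUSG00000046179, chr7:48516176-48531452, minus strand) stood at 13.5, 10.1, 10.8 and 11.9 CPM in M0 and at 25.8, 23.3, 24.3 and 20.9 CPM in M2. Tunica libraries stood at 1.13, 1.33, 1.53 and 1.17 CPM, and Sal003 libraries at 4.00, 4.51, 4.13 and 5.20 CPM. Oligo libraries stood at 2.27, 1.83, 1.57 and 2.10 CPM, and Oli_ISR libraries at 4.77, 4.08, 4.07 and 3.87 CPM. No group overlapped M0 or M2, and every inhibitor library was below every M0 library. The rise with cytokines was 2.04-fold (log2 1.03, SE 0.10; edgeR, Benjamini-Hochberg adjusted p = 1.5e-09). The drop from M2 was 18.3-fold in Tunica (log2 -4.19, SE 0.13), 12.1-fold in Oligo (log2 -3.59, SE 0.12), 5.64-fold in Oli_ISR (log2 -2.5, SE 0.11) and 5.28-fold in Sal003 (log2 -2.40, SE 0.11). In the order M2, M0, Sal003, Oli_ISR, Oligo and Tunica, the Sal003 and Oli_ISR neighbours alone did not pass the test. Gm2788 overlaps 20.2% of E2f8 exon bases on the opposite strand, with 0 to 24 counts a library.

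**Figure D3:**
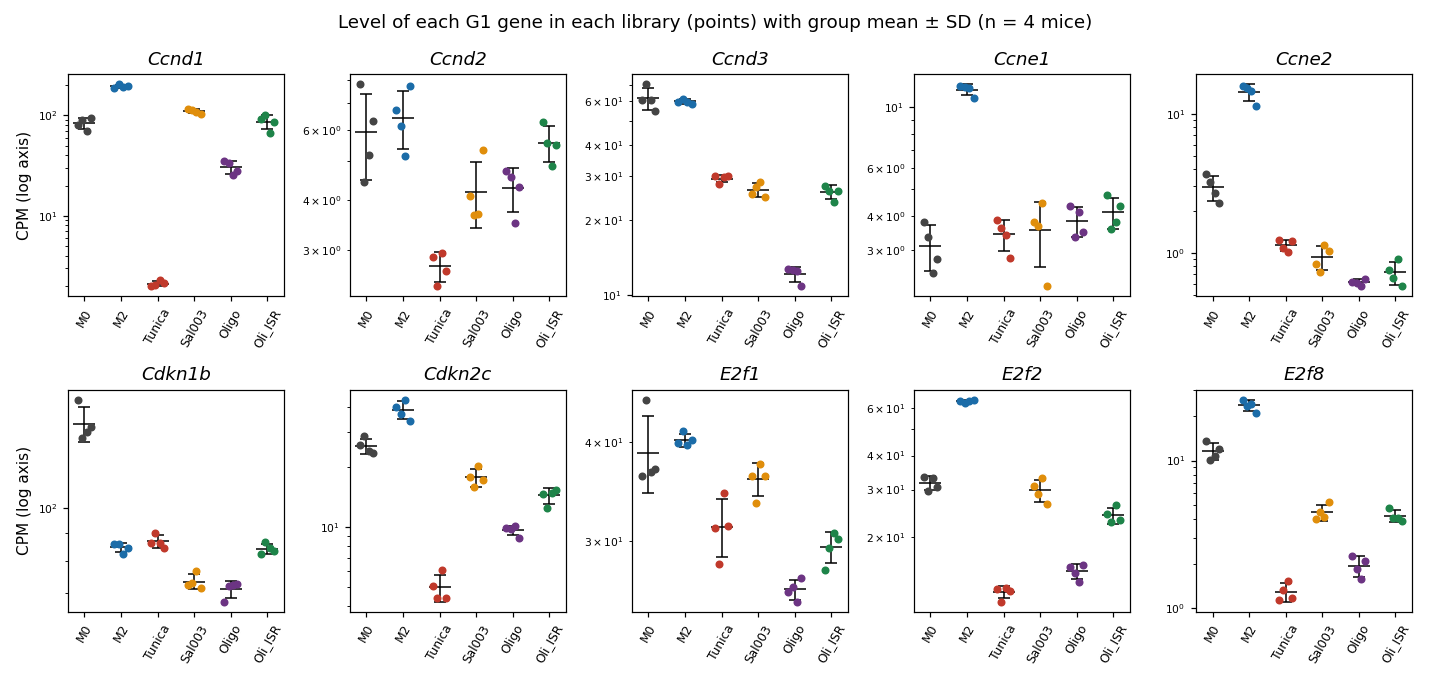
CPM of each of the 10 genes in each of 24 libraries (points, in mouse order 1, 2, 4 and 5 within a group) with the group mean and SD; each panel has its own log axis. Ccnd1 in Tunica lies near 2.11 CPM against 194 CPM in M2, and Cdkn1b is higher in M0, near 142 CPM, than in any group with cytokines.

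Set against naive cells, the inhibitor groups differed by gene. With tunicamycin 9 of 10 genes were below M0 and none was above, where 77.6% of all genes differed, 40.5% lower and 37.1% higher. In Oligo 9 were below M0, where 71% of all genes differed, 35.5% in each direction, and Ccne1 was the exception in both of these groups. In Oli_ISR 7 were below and Ccne1 was above M0, where 63.8% of all genes differed, 31.2% lower and 32.6% higher. That value of Ccne1 was near the threshold (log2 0.41, SE 0.17; edgeR, Benjamini-Hochberg adjusted p = 0.034), and the ranges of Oli_ISR and M0 overlapped. In Sal003 6 were below and Ccnd1 was above M0, by 0.40 on the log2 scale, where 62.5% of all genes differed, 30.8% lower and 31.7% higher. Among the inhibitor groups, 8 of 10 genes differed between Sal003 and Tunica (71.9% of all genes), 9 between Oligo and Tunica (63.5%) and 7 between Oli_ISR and Tunica (71.1%). Of the 10 genes 7 differed between Oligo and Sal003 (51.5% of all genes) and 5 between Oli_ISR and Sal003 (18.5%). Tunicamycin gave the lowest level of Ccnd1, Ccnd2, Cdkn2c, E2f2 and E2f8, and Oligo gave the lowest level of Ccnd3, Ccne2, Cdkn1b and E2f1. Oligo did not pass the test against the next group up for Ccne2 and Cdkn1b. In either direction, the counts of genes that differed were within about 1 gene of the share of all genes for Tunica against M0, Sal003 against M0, Sal003 against Tunica and Oli_ISR against Tunica.

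Of 27 other genes of the G1/S machinery, 26 were tested, and Cdkn2a, with at most 13 counts, was not. With cytokines 18 of 26 rose and 3 fell, with a median log2 fold change of 0.42 against -0.02 over all genes tested. Myc, a growth-promoting transcription factor, rose by 2.93 (SE 0.11), E2f7, a relative of E2f8, by 2.39 (SE 0.29), and Ccna2, the cyclin of S phase and G2, by 2.18 (SE 0.17), each with an edgeR Benjamini-Hochberg adjusted p of 8.8e-08 or less. The genes that fell, named after their values were seen, were Cdkn1c (log2 -2.16, SE 0.32), Cdk6 (-0.60, SE 0.06) and Rb1 (-0.21, SE 0.06), the last in 3 of 4 mice. Of all genes tested, 30.1% rose and 30.4% fell. From M2, 15 fell and 8 rose with tunicamycin, 15 fell and 3 rose with Sal003, 14 fell and 7 rose in Oligo, and 17 fell and 6 rose in Oli_ISR. The medians were -0.29, -0.33, -0.50 and -0.33 in that order. Over all genes tested, 37.6% fell and 38.7% rose in Tunica, 24.6% and 25.9% in Sal003, 32.2% and 34% in Oligo, and 26.4% and 27.9% in Oli_ISR. Between Oligo and Oli_ISR 6 of 26 were lower and 5 higher, with a median of 0.05, which is close to the 21.3% of all genes lower and 19.9% higher.

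E2f7 stood at 7.96 ± 1.16 CPM in M2 and at 0.0902 ± 0.0769 CPM in Tunica (SD, n = 4), where libraries held 1 to 4 counts. It was at 0.495 ± 0.313 CPM in Sal003, 0.136 ± 0.101 CPM in Oligo and 0.358 ± 0.272 CPM in Oli_ISR. Ccna2 went from 41.8 ± 7.01 CPM in M2 to 1.27 ± 0.104 CPM in Tunica, and to 2.77 to 3.30 CPM on average in the other inhibitor groups. Mybl2, a transcription factor of proliferating cells, fell in Tunica (log2 -4.00, SE 0.22), Sal003 (-3.31, SE 0.20), Oligo (-3.28, SE 0.20) and Oli_ISR (-3.21, SE 0.20). Its libraries held 6 to 14 counts in Tunica, 7 to 18 in Sal003, 11 to 19 in Oligo and 14 to 21 in Oli_ISR. The named genes that fell thus include the E2F factor closest to E2f8 and the cyclin that follows the E-type cyclins. Cdkn1c, a Cip/Kip inhibitor like Cdkn1b, rose 11.7-fold in Oligo (log2 3.54, SE 0.29) and 11-fold in Oli_ISR (log2 3.46, SE 0.29), from 1.29 ± 0.239 CPM in M2 to 15 ± 4 and 14.1 ± 4.34 CPM. It also rose 5.81-fold in Sal003 (log2 2.54, SE 0.31), and in Tunica it was at 0.55 (SE 0.38), which did not pass the test. Cdkn1a, another Cip/Kip inhibitor and p53 target, was picked for mention after its values were seen; it rose by 0.84 (SE 0.10) in Oligo, 0.63 (SE 0.10) in Oli_ISR and 0.63 (SE 0.10) in Sal003, and fell in Tunica (log2 -0.29, SE 0.10). Cdkn2b and Cdkn2d, Ink4 inhibitors like Cdkn2c and also picked after their values were seen, fell in Oligo, Oli_ISR and Sal003, with log2 values of -1.40 (SE 0.19) and -0.61 (SE 0.12) in Oligo, -0.82 (SE 0.18) and -0.55 (SE 0.12) in Oli_ISR, and -0.92 (SE 0.19) and -0.64 (SE 0.12) in Sal003. In Tunica Cdkn2d fell (log2 -0.28, SE 0.11), and Cdkn2b, at 0.17 (SE 0.17), did not pass the test. Between Oligo and Oli_ISR, Fbxw7, part of a ligase that targets cyclin E, Tfdp1, the dimer partner of E2F factors, and Myc were higher in Oligo by 0.67 (SE 0.06), 0.60 (SE 0.05) and 0.51 (SE 0.10).

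The 18 genes of DNA replication and mitosis kept as a readout of E2F activity and proliferation moved in the same direction as E2f2 and E2f8 in most cases. With cytokines 18 of 18 rose, against 30.1% of all genes that rose and 30.4% that fell, with a median of 1.47 on the log2 scale. Among them were Rrm2, a subunit of ribonucleotide reductase (log2 2.28, SE 0.16), Top2a, a topoisomerase (1.97, SE 0.11), and Bub1, a mitotic checkpoint kinase (1.8, SE 0.12). Against M2, 17 of 18 fell and 1 rose in each inhibitor group, with medians of -2.37 in Tunica, -2.01 in Sal003, -2.14 in Oligo and -2.05 in Oli_ISR. The shares of all genes that fell were 37.6%, 24.6%, 32.2% and 26.4% in that order, and those that rose were 38.7%, 25.9%, 34% and 27.9%. The gene that rose was Tyms in Tunica and Cdt1 in the other groups, both named after their values were seen. Rrm2 stood at 47 ± 5.84 CPM in M2 and at 1.11 ± 0.143 CPM in Tunica, 3.27 ± 0.717 CPM in Sal003, 1.53 ± 0.247 CPM in Oligo and 2.84 ± 1.34 CPM in Oli_ISR (SD, n = 4). Plk1, a mitotic kinase, fell in Tunica (log2 -4.14, SE 0.18), Sal003 (-3.31, SE 0.17), Oligo (-3.29, SE 0.16) and Oli_ISR (-3.29, SE 0.16). Bub1 fell in the same order of groups by log2 values of -4.21 (SE 0.16), -3.17 (SE 0.14), -3.01 (SE 0.14) and -2.84 (SE 0.13). Cdc6, a licensing factor of replication origins, had -3.19 (SE 0.18), -2.86 (SE 0.18), -4.03 (SE 0.20) and -3.58 (SE 0.19). Mcm5, a subunit of the replicative helicase, had -3.75 (SE 0.09), -2.29 (SE 0.08), -3.35 (SE 0.09) and -2.70 (SE 0.08). Some of these falls rested on few counts a library. Cdc6 held 8 to 18 in Oligo, 13 to 22 in Oli_ISR and 17 to 26 in Tunica. In Tunica Bub1 held 11 to 16 and Plk1 12 to 22. The largest adjusted p among the falls of Plk1, Bub1, Cdc6 and Mcm5 was 1.4e-12, for Cdc6 in Sal003, by edgeR with Benjamini-Hochberg adjustment. Between Oligo and Oli_ISR 4 of 18 were higher, which is close to the 19.9% of all genes, and 6 were lower, against 21.3% of all genes, with a median of -0.16. Tyms (log2 1.03, SE 0.14) and Mcm2 (0.89, SE 0.06) were higher while Mcm5 (-0.65, SE 0.10) was lower in Oligo.

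Over the 24 libraries, the 45 pairs of the 10 genes had a graded range of Pearson's r of log2 CPM. It was 0.96 between E2f2 and E2f8, 0.96 between Cdkn2c and E2f8 and 0.95 between Cdkn2c and E2f2, and Ccnd1 had an r of 0.90 with Cdkn2c and Ccnd3 an r of 0.87 with E2f1. Cdkn1b had its highest r with Ccnd3, at 0.70, then 0.47 with E2f1, 0.43 with E2f8, 0.36 with Ccne2, 0.32 with Ccnd2, 0.32 with Cdkn2c, 0.23 with E2f2, 0.08 with Ccnd1 and -0.18 with Ccne1. These libraries share 6 groups and 4 mice, so the points are not independent. Among 8637 other genes with a mean of at least 10 CPM, those most like Ccnd1 were Tcf7l2 (r = 0.991), Aldh1l1 (r = 0.991) and Myo1f (r = 0.990). Those most like Ccnd2 were Cdip1 (r = 0.891), Mprip (r = 0.890) and Dek (r = 0.883). Arl5c (r = 0.966), Heca (r = 0.965) and Elac1 (r = 0.963) were most like Cdkn1b, and Mmp24os1 (r = 0.942), S100a13 (r = 0.940) and Anapc13 (r = 0.930) were most like E2f1. Aldh1l1, for example, had means of 16.3 CPM in M0, 37.2 CPM in M2 and 0.622 CPM in Tunica, and Arl5c had means of 116 CPM in M0 and 41.4 CPM in M2.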

How the data were processed

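RNA of 24 BMDM libraries, 4 mice in each of 6 groups, was sequenced. Per the labels and methods, the authors trimmed reads with cutadapt 1.8, aligned them to GRCm39 with STAR 2.7 and made gene counts with HTSeq 0.9.1. The deposited table of counts held 56884 genes and 5 further lines of reads assigned to no gene, which made up 12.7 to 15.2% of a library and were left out. The deposited TPM table (RSEM 1.2.31) had 28 header names over 25 cells a line, so its 24 value columns were not used. TPM given in the text were computed from the counts and the union exon length of GENCODE vM39, which lists 56323 of these genes.

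Counts were analyzed in R 4.3.3 with edgeR 4.0.16 and limma 3.58.1: filterByExpr by group (13679 genes tested), TMM normalization and quasi-likelihood tests with 1 coefficient per group over all 24 libraries. P values were adjusted by Benjamini-Hochberg over all genes tested within each comparison. A gene changed at an adjusted p under 0.05, and a further count required 2.5-fold. SE was computed from the fold change and its F statistic. The median biological coefficient of variation was 7.06%. Mice were not a term of the model. A check on residuals after removal of group means gave a median r of 0.24 over 60 pairs of libraries with the same mouse number in different groups and -0.05 over 180 pairs with different numbers, so a number was taken as 1 mouse.

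As alternatives, the values of the 10 genes in the 6 comparisons of M2 with another group or of the oligomycin groups were recomputed with no filter, with DESeq2 1.42.0, with upper-quartile scaling, with at least 10 counts in every library, with a replicate block for mouse, only the groups compared, leaving out each mouse in turn, and 2-fold. The other pairs of groups, the orders of levels that rest on them and the gene lists were not recomputed. Genes of the lists were named if among the 3 with the largest change in a comparison, past the test, in the same direction in 4 mice and with a mean of at least 50 counts; genes named outside this rule are marked, and a gene it named in 1 comparison may have its values given in others. Likeness was computed for Ccnd1, Ccnd2, Cdkn1b and E2f1 with a prior count of 2. The 10 genes and the lists were chosen with earlier results of these data known.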

Additional observations from a re-analysis of the deposited data

Results flagged for a closer look

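In 5 of 60 groups of 4 libraries, 1 library stood apart from the other 3 in a member's CPM, where chance gives about 1 in 20 groups. Ccnd3 was 28 CPM in the Tunica library of mouse 2, with the others at 29.8 to 30.0 CPM, and 10.9 CPM in the Oligo library of mouse 5, with the others at 12.5 to 12.8 CPM. Ccne1 was 10.8 CPM in the M2 library of mouse 5, with the others at 11.8 to 12.0 CPM. Cdkn1b was 67.6 CPM in the Oligo library of mouse 1, with the others at 72.3 to 72.7 CPM. E2f1 was 45.2 CPM in the M0 library of mouse 2, with the others at 36.2 to 37.0 CPM.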

How the results depend on the processing

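Of 600 log2 fold changes of the 10 genes in 6 comparisons recomputed under the alternatives, 586 kept their direction and their side of the threshold, 8 no longer passed, 3 newly passed and 3 reversed. The reversed values were all small and not past the test: Ccnd3 in M2 against M0 without mouse 2 (0.01, with a range of -0.07 to 0.01 when each mouse was left out), and Cdkn1b in Tunica against M2 under upper-quartile normalization (-0.02) and with at least 10 counts in every library (-0.01). The cause was not tested. The 8 that no longer passed were E2f1 in Sal003 against M2 and in Oligo against Oli_ISR, and the 3 that newly passed were E2f1 in M2 against M0 without mouse 2 and Ccnd2 in Oligo against Oli_ISR with a replicate block or with only the groups compared.

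With 2-fold in place of 2.5-fold, the count of genes went to 4 in M2 against M0, 6 in Sal003 against M2 and 3 in Oligo against Oli_ISR, from 2, 3 and 1, and to 8 in Tunica and 7 in Oli_ISR against M2, from 6 and 5, as a lower threshold admits more genes. It was 7 in Oligo against M2 with either threshold. The share of all genes past 2-fold was not computed, so the counts at 2-fold cannot be set against it. With a replicate block for mouse, the genes changed were 7 in M2 against M0, 9 in Tunica, 10 in Sal003, 10 in Oligo and 8 in Oli_ISR against M2, and 8 in Oligo against Oli_ISR. Shares of all genes were computed only in the fit without this block, so these counts have no matching share. Ccne2 in the oligomycin groups rested on 11 to 16 counts a library, which limits differences between those groups.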
